A study of Mus musculus with 8 samples.

Results

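The 39 protein-coding genes of the mouse Hoxa, Hoxb, Hoxc and Hoxd clusters were followed in fetal lung with and without tracheal occlusion (TO). They were taken by symbol, as Hoxa, Hoxb, Hoxc or Hoxd followed by a number, from the 55385 gene IDs counted in each library. Whole lungs of C57BL/6 fetuses were collected at E18.5, and the TO fetuses had undergone surgical closure of the trachea at E16.5, so that lung fluid could not drain. In the study's mouse model the ligature also took in a carotid artery and a jugular vein. Closure of these vessels and of the trachea cannot be told apart here. The control group had no occlusion stated in the labels. Messenger RNA of 4 control and 4 TO lungs was sequenced, and the libraries are called control 1 to 4 and TO 1 to 4. The study's own comparison used controls 1, 2 and 4 and TO 2, 3 and 4, and tests below were made on these 6 libraries first.

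Hox genes encode homeodomain transcription factors that give cells their position along the head-to-tail axis. They lie in 4 clusters, and genes in the same place of different clusters form a paralog group, numbered from the 3′ end, whose genes are expressed most anteriorly, to the 5′ end, whose genes are expressed most posteriorly. In the lung, which buds from the anterior foregut, the genes of the anterior and middle groups are known to be expressed mainly in mesenchyme, and Hoxa5 is required there for normal development of the trachea and lung. The proteins bind DNA with cofactors of the TALE homeodomain class (Pbx, Meis and Pknox), and Polycomb and Trithorax proteins keep each cluster's genes silent or active.

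On the GRCm38 assembly the Hoxa cluster has 11 members on the minus strand of chromosome 6 (chr6:52155590-52260880). The Hoxb cluster has 10 on the plus strand of chromosome 11 (chr11:96194316-96368256). The Hoxc cluster has 9 on the plus strand of chromosome 15 (chr15:102921103-103036852), and the Hoxd cluster has 9 on the plus strand of chromosome 2 (chr2:74668310-74765142). The clusters also hold microRNA genes, and the mature sequences below, from RefSeq (GRCm38.p6), are shown because their seeds match several members described here. Capitals mark the seed, bases 2 to 8. The first pair shares one seed and the second pair another.
miR-10a-5p, chr11:96317186-96317208, plus strand, in the Hoxb cluster: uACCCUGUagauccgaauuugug
miR-10b-5p, chr2:74726074-74726096, plus strand, in the Hoxd cluster: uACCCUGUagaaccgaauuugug
miR-196a-5p, chr11:96265187-96265208, plus strand, in the Hoxb cluster, with a further copy in the Hoxc cluster: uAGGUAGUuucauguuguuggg
miR-196b-5p, chr6:52230129-52230150, minus strand, in the Hoxa cluster: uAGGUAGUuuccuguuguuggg

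MicroRNAs bind the 3′ UTR of messenger RNAs mainly through the seed and lower their stability and translation. The 3′ UTR of the longest annotated coding transcript was searched on the transcript strand for the exact complement of each seed. The complement of the miR-196 seed, ACTACCT, stood in 8 of 39 members (20.5%), Hoxa4, Hoxa5, Hoxa7, Hoxa9, Hoxb1, Hoxb6, Hoxb7 and Hoxc8, and in 6.06% of 21022 genes of the annotation with a 3′ UTR. That of the miR-10 seed, ACAGGGT, stood in 4 of 39 members (10.3%), among them Hoxa3, Hoxb3 and Hoxd1, and in 12.3% of the same genes. The median 3′ UTR was 966 bases long in the members and 935 in all of these genes. Over the whole length of miR-196a-5p, the best ungapped site of any member was in the 3′ UTR of Hoxb8, which is the known target that miR-196 cleaves. It paired at 21 of 22 bases, and the next best member, Hoxd8, at 15. The Hoxb8 site is shown 5′ to 3′ at its place on the genome, with capitals for bases that pair with miR-196a-5p by Watson-Crick rules and lower case for the one that does not.
Hoxb8 site, chr11:96284888-96284909, plus strand, 3′ UTR: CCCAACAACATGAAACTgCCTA
These matches describe sequence, and mature microRNAs were not measured in the libraries. Read pairs on the hairpin gene Mir196a-1 numbered 3, 29, 0 and 12 in controls 1 to 4 and 0, 0, 0 and 11 in TO 1 to 4. Mir10a had 40 in the 7 deeper libraries together, and Mir10b, Mir196a-2 and Mir615 had 0 in all 8. Mir196b lies wholly within an exon of Hoxa9, so no pair over it could be counted.

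Read pairs counted on genes numbered 22822261 to 35002061 in 7 libraries and 270078 in TO 1. Levels are given as CPM, the read pairs of a gene relative to all pairs on genes, scaled by TMM (trimmed mean of M values), and comparisons between genes as CPM per kilobase of annotated exons. A single pair equaled 3.43 CPM in TO 1 and 0.0284 to 0.0438 CPM in the others, so TO 1 is shown but left out of means over 7 libraries. Lung markers were present in every library, with Sftpc, the surfactant protein of type 2 cells, at 4419 to 12780 CPM and Tcf21, a factor of lung mesenchyme, at 103 to 340 CPM. The summed level of 4 cardiac muscle genes was 278 to 429 CPM in controls 1 and 2 and 1600 to 3080 CPM in the other 6 libraries. That of 4 skeletal muscle genes was 9.85 to 25.3 CPM in controls 1 and 2 and 59.7 to 299 CPM in the others, so the amount of muscle RNA differed within the control group. In whole lungs, fewer cells of a type and less RNA per cell cannot be told apart.

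Of the 39 members, 12 had at least 1 pair in every library and 9 had 0 pairs in all 8. The 9 undetected members were Hoxa11, Hoxa13, Hoxc11, Hoxc12, Hoxc13, Hoxd1, Hoxd11, Hoxd12 and Hoxd13, all but Hoxd1 from groups 11 to 13. A count of 0 allowed a level of up to 0.0853 to 0.131 CPM in the 7 deeper libraries and 10.3 CPM in TO 1, at 3 pairs per library. All Hox genes together had 30932 pairs in the 8 libraries.

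The Hox RNA of the E18.5 lung came mostly from the middle of the Hoxa and Hoxb clusters. Summed over members, the Hoxa cluster stood at 45.2 ± 10.3 CPM per kb (SD, n = 7 libraries) and held 67.7% of the Hox level. The Hoxb cluster stood at 19.8 ± 3.86 CPM per kb and held 29.7%. The Hoxc cluster, at 0.869 ± 0.58 CPM per kb, and the Hoxd cluster, at 0.910 ± 0.44 CPM per kb, held 1.30% and 1.36%. By position, group 5 held 56.9% of the level and group 4 16.9%, followed by group 3 with 7.07%, group 6 with 5.84% and group 2 with 5.52%. Levels fell off toward the 5′ end. Group 9 stood at 0.521 ± 0.340 CPM per kb. The 12 members of groups 10 to 13 had 35 pairs in all, and groups 9 to 13 had 0.939% of the Hox pairs of the 7 libraries.

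**Figure D1:**
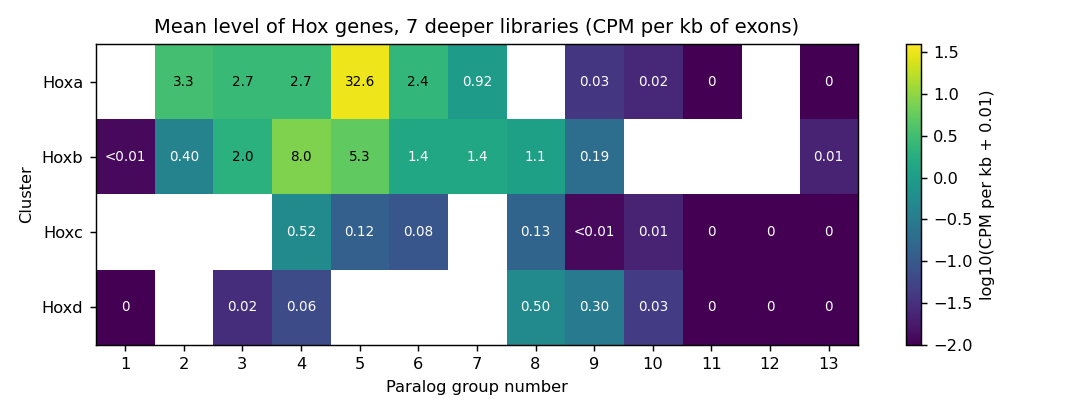
Mean level in CPM per kb of exons over the 7 deeper libraries, by cluster (rows) and paralog group (columns), with color on a log10 scale and white where no value is shown. Hoxa5, at 32.6, stands above its neighbors, and the levels of groups 10 to 13 are near 0 in every cluster.

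Hoxa5 was the most abundant Hox gene in each library, with 33.9% to 43.4% of the Hox CPM before scaling by length. Its level was 32.6 ± 8.18 CPM per kb (SD, n = 7 libraries). Hoxb4 followed with 7.95 ± 1.01 CPM per kb and Hoxb5, the paralog of Hoxa5, with 5.31 ± 1.55 CPM per kb. Hoxa5 was above Hoxb4, Hoxb4 above Hoxb5 and Hoxb5 above the next gene, Hoxa2, in 7 of 7 libraries. The level of Hoxa5 per kb was 5.31 to 7.95 times that of Hoxb5 and 2.61 to 5.18 times that of Hoxb4. Against its neighbors in the cluster it was 8.37 to 16.0 times as high as Hoxa4 and 8.73 to 25.5 times as high as Hoxa6. Hoxc5, the remaining gene of the group, stood at 0.119 ± 0.104 CPM per kb.

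In the counts used, the order was less certain below these 3 genes. Hoxa2 (3.29 CPM per kb), Hoxa4 (2.73), Hoxa3 (2.70), Hoxa6 (2.40) and Hoxb3 (2.01) each exceeded the next in 4 or 5 of 7 libraries, so neighbors in this order did not differ beyond their spread. Hoxb3 was above Hoxb6 (1.43 CPM per kb) in 7 of 7 libraries, and Hoxb6 was above Hoxb7 (1.41) in 3. Hoxb8 (1.11 CPM per kb) and Hoxa7 (0.925) closed the 12 highest, of which 6 were Hoxa and 6 Hoxb genes. Of the other two clusters, Hoxc4 (0.522 CPM per kb), Hoxd8 (0.498) and Hoxd9 (0.304) were the highest, each with pairs in all 7 deeper libraries. Hoxc8 was uneven, with 76 pairs in TO 2, 11 in control 4, 3 in TO 1 and 0 in the other 5 libraries.

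Several of these levels depended on how overlapping genes were counted. In the counts used, a pair over exons of more than 1 gene was dropped, and 16 members shared exon bases with another gene. When the 2 single-strand counts were added instead, pairs over genes of opposite strands were kept for both genes. Hoxb2, which shares 27.3% of its exon bases with the antisense gene Hoxb3os, then went from 273 to 3752 pairs in the 7 libraries, and from rank 16 to rank 5 of the members per kb. Hoxb3, which shares 52.9%, went from 1721 to 6817 pairs and from rank 8 to rank 3. With the strand sum it stood at 7.952 CPM per kb, beside 7.954 for Hoxb4 and 7.119 for Hoxb5. The places of Hoxb4 and Hoxb5 after Hoxa5 were thus less certain too. Hoxb3os itself went from 337 to 8888. Hoxb5 rose from 3017 to 4039 pairs and Hoxa3 from 3294 to 4819, whereas Hoxa5 and Hoxb4, which share no exon base with another annotated gene, had the same 12440 and 4136 pairs in both. The libraries carried no strand information (49.9% to 50.1% of pairs on 1 strand), so the pairs of a gene and its antisense partner cannot be told apart, and the levels of Hoxb2 and Hoxb3 are uncertain. Hoxd3 and Hoxd4 share 2613 of 4191 and 1542 of 2948 exon bases with genes of the same strand. Neither count keeps pairs there, so the low counts of these genes are uncertain too. Per unshared exon length the Hoxd cluster stood at 1.005 CPM per kb. With the strand sum group 2 stood at 8.75 and group 3 at 11.95 CPM per kb, and group 6 at 3.91 as before, so group 2 came above group 6. It did so too per unshared exon length (4.42 against 3.91).

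**Figure D2:**
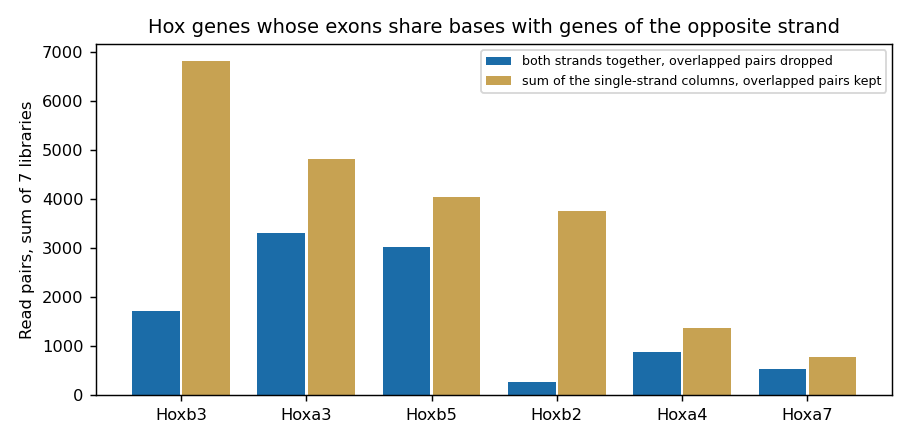
Read pairs summed over the 7 deeper libraries for tested members whose count rose by more than 1.2 times when pairs over opposite-strand genes were kept. Each member has a bar for the counts used here and a bar for the sum of the single-strand counts, and Hoxb2 (273 against 3752) and Hoxb3 (1721 against 6817) differ most.

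The comparison of TO with control asked whether occlusion changed this pattern. Of 39 members, 22 had at least 5 reads in 3 or more of the 6 libraries and were tested, and 17 were not, among them 13 of the 16 members of groups 9 to 13. By the quasi-likelihood test of edgeR none was called at an adjusted p under 0.1, nor did any have an unadjusted p under 0.05. DESeq2 and limma-voom also gave 0 members at both thresholds. Over all 21859 genes tested, edgeR called 0%, and 5.14% had an unadjusted p under 0.05. Of the 18421 genes that DESeq2 adjusted, it called 0.239%. With all 8 libraries edgeR again called 0% of genes, and 2.35% had an unadjusted p under 0.05, with no member among them. With the replicate number as a block, edgeR called 219 of all genes in the 6 libraries and still 0 members. In that fit control 1 and TO 3 had no partner of the same number. Its TO effect thus rested on controls 2 and 4 and TO 2 and 4. With the specimen code as a block, edgeR called 0 of all genes, and TO 3, without a control of its code, added nothing to the TO effect.

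Of the 22 tested members, 9 were higher and 13 lower in TO. The median of their log2 fold changes was -0.10, beside -0.0045 over all genes, of which 49.3% were higher. With control 3 added, 14 were higher and 8 lower (median 0.07), and with TO 1 as well 12 were higher and 10 lower. No direction thus held for the members as a set. Summed by cluster, Hoxa stood at 52.2 ± 7.54 CPM per kb in the 3 controls and 43.1 ± 8.95 in the 3 TO lungs (SD). Hoxb stood at 21.5 ± 3.82 and 20.4 ± 1.91, Hoxc at 0.69 ± 0.49 and 1.21 ± 0.65, and Hoxd at 0.731 ± 0.058 and 1.22 ± 0.55. Control and TO lungs overlapped in each cluster, and these sums were not tested. Among the 16 members with at least 5 pairs in each of the 6 libraries the fold changes ran from -0.63 to 0.76 on the log2 scale, and 13 were within 0.5 of 0. For 8 of these, Hoxa2, Hoxa3, Hoxa4, Hoxa5, Hoxb3, Hoxb4, Hoxb5 and Hoxb6, the 95% interval of the fit to 6 libraries lay within a 2-fold change either way. For the other tested members the interval reached past a 2-fold change on at least 1 side. These bounds hold for that fit alone. With control 3 added, Hoxb6 was at 0.20 (SE 0.43, beside 0.37 in the 6 libraries) and Hoxb3 at 0.04 (SE 0.40, beside 0.205).

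**Figure D3:**
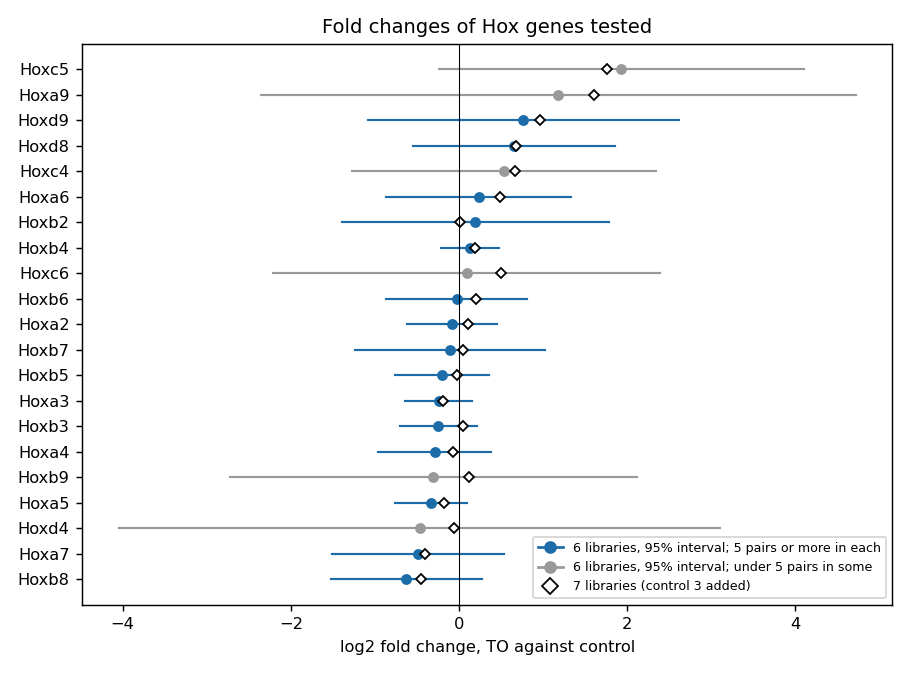
Log2 fold change of TO against control for tested members, with lines for the 95% interval of the edgeR fit to 6 libraries, gray where a member had under 5 pairs in some library, and diamonds for the fit to 7 libraries. Every interval includes 0, and Hoxa2, Hoxb3, Hoxb6, Hoxb7 and Hoxb9 change side when control 3 is added.

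Hoxa5 was measured at 67.0, 85.4, 42.3 and 62.6 CPM in controls 1 to 4 and at 58.4, 71.6, 44.3 and 54.9 CPM in TO 1 to 4. The groups overlapped, and control 3 and TO 3, whose names share a specimen code, had the lowest level of their groups. Over the 6 libraries Hoxa5 averaged 71.7 ± 12.1 CPM in control lungs and 56.9 ± 13.7 CPM in TO (SD, n = 3 each). Its log2 fold change was -0.33 (95% interval -0.76 to 0.10, edgeR adjusted p = 0.907), and -0.17 with all 8 libraries.

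Hoxb4 was the steadiest of the abundant members, at 19.96, 22.6, 16.6 and 17.8 CPM in the controls and 17.2, 22.8, 23.2 and 19.9 CPM in TO. Hoxb5, which acts in airway branching together with Hoxa5, ranged from 8.79 to 20.5 CPM in the controls and from 11.3 to 17.3 CPM in TO. Its 4 controls were 18.52, 20.5, 8.79 and 11.7 CPM, and its 4 TO lungs 13.7, 17.3, 11.3 and 15.3 CPM. For neither gene did the groups separate, with log2 fold changes of 0.13 (95% interval -0.22 to 0.47) and -0.20 (-0.77 to 0.36). For Hoxb5 control 3 and TO 3 were again the lowest of their groups. For Hoxb4 control 3 was the lowest of the controls, whereas TO 3 was the highest of the TO lungs.

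For the anterior genes Hoxa2, Hoxa3 and Hoxa4 the control and TO lungs overlapped. Hoxa2 was at 6.30, 6.47, 3.29 and 6.59 CPM in controls 1 to 4 and at 3.43, 4.94, 6.45 and 6.85 CPM in TO 1 to 4. Hoxa3 was at 17.0, 19.8, 15.3 and 16.5 CPM in the controls and at 10.3, 14.6, 13.1 and 17.3 CPM in TO. Hoxa4 was at 4.51, 4.65, 2.25 and 6.35 CPM in the controls and at 3.43, 5.32, 4.05 and 3.33 CPM in TO. Their log2 fold changes were -0.09, -0.24 and -0.29, and the 95% interval of each included 0. Hoxb3, an anterior gene of the Hoxb cluster, was at 8.45, 11.97, 2.85 and 10.4 CPM in the controls and at 0, 8.93, 8.39 and 8.70 CPM in TO. The low value of Hoxb3 in control 3 rested on 85 pairs and the 0 in TO 1 on a library where 3 pairs equal 10.3 CPM. Without both of these libraries Hoxb3 had a log2 fold change of -0.25, and with control 3 added 0.04.

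**Figure D4:**
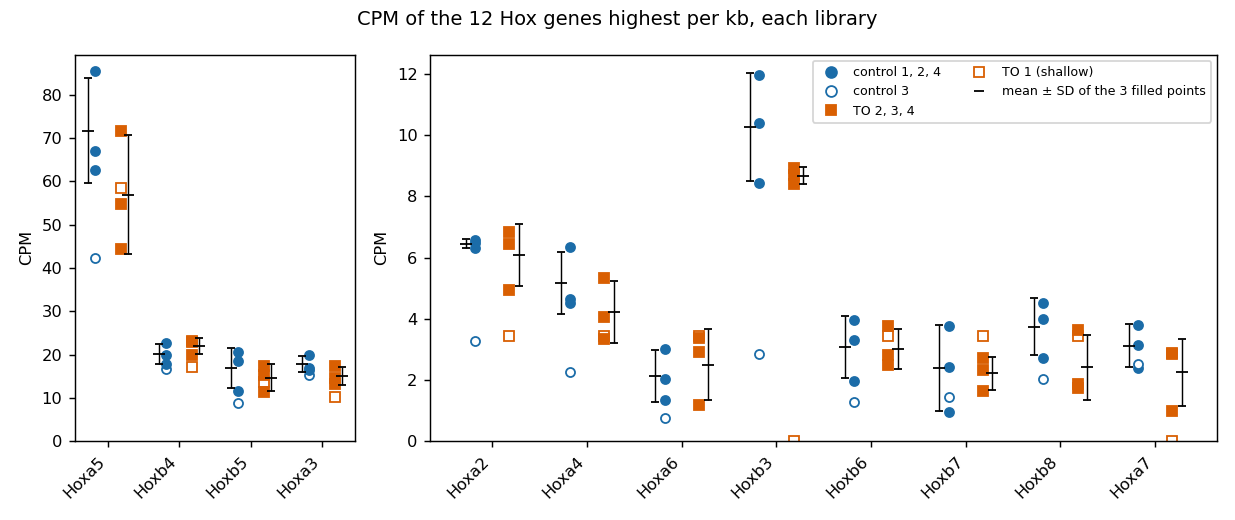
CPM in each library for the 12 members highest per kb, on linear axes with the 4 most abundant at left, circles for control, squares for TO and open symbols for control 3 and TO 1. Bars give the mean and SD of the 3 control and 3 TO lungs tested, and these overlap for each gene.

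The members of groups 6 to 8 varied more among the lungs. Hoxa6 was at 1.36, 3.02, 0.772 and 2.02 CPM in controls 1 to 4 and at 3.43, 3.38, 1.198 and 2.93 CPM in TO 1 to 4 (log2 fold change 0.23). Hoxb6 was at 1.97, 3.97, 1.28 and 3.31 CPM in the controls and at 3.43, 2.83, 2.48 and 3.75 CPM in TO (-0.03). Hoxb7 was at 0.963, 3.77, 1.44 and 2.43 CPM in the controls and at 3.43, 2.72, 2.31 and 1.65 CPM in TO (-0.11). Of the 3 tested controls, control 1 was the lowest and control 2 the highest for these genes, and the range within them exceeded the difference between the group means. Hoxa7 and Hoxb8 had the lowest fold changes among members with 5 pairs in each library. Hoxa7 was at 2.41, 3.81, 2.52 and 3.15 CPM in the controls and at 0, 2.89, 2.85 and 0.995 CPM in TO (-0.49, 95% interval -1.51 to 0.54). Hoxb8, which holds the miR-196 site shown above, was at 2.71, 4.52, 2.05 and 4.003 CPM in the controls and at 3.43, 3.64, 1.74 and 1.88 CPM in TO (-0.63, 95% interval -1.53 to 0.27). TO and control lungs overlapped for both.

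Among members with 5 pairs in each of the 6 libraries, Hoxd8 and Hoxd9 had the highest fold changes. Hoxd8 was at 1.31, 0.813, 1.04 and 1.17 CPM in controls 1 to 4 and at 20.6, 2.34, 2.11 and 0.768 CPM in TO 1 to 4, and the first of these TO values rested on 6 pairs. Hoxd9 was at 0.438, 0.683, 0.269 and 0.445 CPM in the controls and at 0, 0.781, 1.74 and 0.199 CPM in TO. TO 2 and TO 3 lay above every control for both genes and TO 4 below every one, and the log2 fold changes of 0.65 (SE 0.53) and 0.76 (SE 0.82) did not pass the test (edgeR adjusted p = 0.914 and 0.939). Without TO 3 that of Hoxd9 was -0.09.

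Only Hoxc5 and Hoxc10 had 3 TO lungs that did not overlap the 3 controls. Hoxc5 had 7, 3, 7 and 2 pairs in controls 1 to 4 and 0, 17, 8 and 36 in TO 1 to 4. TO 2, 3 and 4 were thus above all 4 controls, at 0.331 to 1.02 CPM against 0.0809 to 0.306 CPM, with a log2 fold change of 1.93 (SE 0.96, edgeR adjusted p = 0.907). It was 1.35 without TO 4, 2.73 without control 1 and 2.93 with the replicate block. The last of these values rested on controls 2 and 4 and TO 2 and 4. Hoxc5 was called in none of these fits. Over all genes tested, 5.06% had 3 TO lungs above the 3 controls and 5.82% below. Hoxc10, not tested, had 2, 1, 0 and 1 pairs in controls 1 to 4 and 0 in each TO lung, which is within the limit that a count of 0 allows. These 2 genes share 166 exon bases on the same strand, where pairs were dropped for both.

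Of the tested members not yet given by library, Hoxb2 was at 0.364 to 1.88 CPM in the controls and 0 to 2.52 CPM in TO, and Hoxc4 at 0.130 to 2.36 and 1.198 to 3.43 CPM. Hoxa9, Hoxb9, Hoxc6 and Hoxd4 had 31 to 99 pairs in all 8 libraries. The untested Hoxa10, Hoxb1, Hoxb13, Hoxc9, Hoxd3 and Hoxd10 had 1 to 18.

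The other genes that lie within the clusters, most of them noncoding, passed no test. Beside the 11 Hoxa members lie 20 other annotated genes, of which 8 were tested and 3 lay above and 5 below control (median log2 fold change -0.27). Of 9 beside the Hoxb members 7 were tested, with 1 higher and 6 lower (median -0.33). The 7 beside the Hoxc members, which include the noncoding RNA Hotair, had 0 pairs, and none of the 10 beside the Hoxd members was tested. None was called in any cluster. In the counts that drop overlapping pairs, the most abundant were 5730596B20Rik (7.32 CPM, mean of 7 libraries) and Hoxaas2 (6.04 CPM) in the Hoxa cluster, and Gm53 (2.77 CPM) and Gm11536 (2.25 CPM) in the Hoxb cluster. With the strand sum the first places changed, to Hoxaas2 (2419 pairs in 7 libraries) ahead of 5730596B20Rik (1675), and to Hoxb3os (8888) and Hoxb5os (1454) ahead of Gm53 (570) and Gm11536 (496).

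The partners and chromatin regulators of Hox genes did not pass the test in TO against control. All 9 TALE cofactors were tested, with 4 higher and 5 lower (median log2 fold change -0.01), and Pbx2 stood at 119 CPM (mean of 7 libraries). Of 15 Polycomb genes 5 were higher and 10 lower (median -0.04), with Phc2 at 135 and Suz12 at 118 CPM. Cbx2, a Polycomb chromodomain protein, had an unadjusted p under 0.05 (log2 fold change -0.36, edgeR adjusted p = 0.907). Of 9 Trithorax and H3K27 demethylase genes 5 were higher and 4 lower (median 0.01), with Kmt2d at 280 and Kat6a at 199 CPM. The summed Polycomb level was 992 to 1051 CPM in the 3 controls and 953 to 976 CPM in the 3 TO lungs, without overlap. The sums overlapped for the TALE cofactors (580 to 626 and 546 to 643 CPM) and the Trithorax list (1083 to 1145 and 981 to 1205 CPM). These sums were not tested.

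Known upstream regulators of Hox clusters gave a like picture. Of 12, among them retinoic acid receptors and Cdx factors, 9 were tested, with 6 higher and 3 lower (median 0.09). Of the higher ones 1 had an unadjusted p under 0.05 by edgeR, and none was called. Rxra stood at 112 and Rarg at 93.5 CPM. Of 8 genes of the Wnt2 and Bmp4 axis of lung mesenchyme and epithelium 5 were higher and 3 lower (median 0.11), with Nkx2-1 at 577 and Tbx5 at 155 CPM. Wnt2, a ligand of lung mesenchyme, was lowest in control 3 (15.0 CPM) and TO 3 (19.7 CPM), beside 50.3 to 62.0 CPM in the other 6 libraries. Those are the lungs in which Hoxa5 and Hoxb5 were lowest. Other genes of the same list went the other way. Fgf10 (82.0 CPM in control 3 and 85.9 CPM in TO 3) and Axin2 (72.0 and 82.2 CPM) were highest in these lungs. The part that the specimen code shared by these lungs has in these values was not tested.

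Markers of cell types passed no test either, and each list is given by its tested genes and its summed level in the 3 controls and 3 TO lungs. The 7 mesenchyme genes, led by Col3a1 and Col1a1, had 3 higher and 4 lower in TO, at 6340 to 7436 and 6578 to 7861 CPM. The 6 epithelium genes, led by Sftpc and Nkx2-1, had 1 higher and 5 lower, at 7899 to 13430 and 7424 to 14730 CPM, and Epcam had an unadjusted p under 0.05. The 4 endothelium genes, led by Cdh5 and Pecam1, had 2 higher and 2 lower, at 1384 to 1513 and 1162 to 1695 CPM. All 4 leukocyte genes, led by Lyz2 and Coro1a, were higher, with 2 at an unadjusted p under 0.05, at 136 to 206 and 179 to 341 CPM. All 4 cardiac genes, led by Myh6 and Tnnt2, were higher, at 278 to 2343 and 1600 to 2664 CPM. All 4 skeletal muscle genes, led by Ckm and Actn3, were higher, with Myod1 at an unadjusted p under 0.05, at 9.85 to 82.1 and 59.7 to 146 CPM. Of 4 cartilage genes, led by Col2a1 and Col9a1, 3 were tested with 2 higher, at 10.6 to 35.7 and 26.2 to 35.6 CPM. The 4 neuron and glia genes had 2 higher and 2 lower, at 11.8 to 19.9 and 17.0 to 20.3 CPM. Muscle RNA was thus lowest in controls 1 and 2, and the Hox total was 159 and 197 CPM there, 105 and 153 CPM in controls 3 and 4, and 165, 174, 131 and 145 CPM in TO 1 to 4. The part of muscle RNA in the Hox levels was not tested.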

How the data were processed

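Whole-lung RNA (4 control, 4 TO) was barcoded by the authors with NexteraXT, sequenced as 150-bp read pairs and aligned to GRCm38 (mm10 in the submitters' processing notes) with STAR. The deposited files hold unnormalized counts of read pairs for each gene, unstranded and by strand, and the unstranded counts were used. No version of STAR and no annotation is given in the sources used here. Of 55385 gene IDs, 55144 matched GENCODE M21 without the version and 54487 with it, and symbols, exons and coordinates came from that release.

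CPM used TMM factors of all 8 libraries, and levels per kb the union of annotated exons. Genes reaching 5 reads in 3 libraries entered the test with edgeR 4.0.16 (quasi-likelihood, R 4.3.3), TMM scaling and Benjamini-Hochberg adjustment over all genes, at a threshold of 0.1. Fold changes are those of the fit. Standard errors were computed from it, as the absolute log fold change divided by the square root of the F statistic of the test. Intervals were that value times a t quantile on either side of the fold change. Such standard errors and intervals are unstable where a fold change is very small. No label says that lungs of a group came from separate litters, so p-values measure the spread between these samples. Alternatives were DESeq2 1.42.0, limma-voom (limma 3.58.1), other scalings and filters, blocks, strand sums, other gene lengths, 7 or 8 libraries and leaving out each library. Scripts were tested on simulated data. Floors of 3 pairs cover counting error only, as the reads carry no molecular identifiers.

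Same-numbered lungs deviated together from their group means (r = 0.207, 0.34, 0.489 and 0.339 for numbers 1 to 4, over 9335 genes), so the replicate numbers of the labels were taken to pair the lungs. The specimen codes in the names are shared by same-numbered lungs (3573 for number 2, 3604 for number 3), and code 3482 by numbers 1 and 4. Lungs that share code 3482 but not the number gave r = 0.332 (control 4 with TO 1) and 0.147 (control 1 with TO 4), so pairing by number and by code cannot be told apart. What a code stands for is not given in the sources used here.

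Library values were given for the 10 members highest per kb, any member called, members whose 3 TO and 3 control lungs did not overlap, and the 3 highest and 3 lowest fold changes among members with 5 reads in each of 6 libraries. In the other lists the 2 most abundant genes and any called were named. Hotair, the antisense genes, the microRNA genes, Wnt2, Fgf10, Axin2, Tcf21 and genes at an unadjusted p under 0.05 were named after their values were seen. The members and lists were chosen with earlier results of these data known. Of the genes that these rules take in, some are not reported here by themselves and stay in the counts.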

Additional observations from a re-analysis of the deposited data

Results flagged for a closer look

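Members were examined for 1 lung standing apart from the other 3 of its group by Dixon's test, which marks about 1 in 20 groups by chance, and 5 of 44 groups were marked. Hoxa2 was at 3.29 CPM in control 3, below the 6.30 to 6.59 CPM of the other controls. Hoxa9 was at 0.324 CPM in control 4, on 8 pairs, with 0 pairs in the other 3 controls. The other 3 were values of TO 1, in which 1 pair equals 3.43 CPM. Hoxb3 was at 0 CPM there, Hoxc6 at 3.43 CPM on 1 pair and Hoxd8 at 20.6 CPM on 6 pairs.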

How the results depend on the processing

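By edgeR, DESeq2 and limma-voom 0 Hox members were called under the alternatives run, and the replicate block changed no other call of a member. All genes called numbered 0 in the edgeR fit to 6 libraries, 219 with the replicate block and 0 with the specimen code as a block. They numbered 3 with the replicate block in all 8 libraries and 5 with the replicate block in 7 libraries, a fit chosen after seeing the data. Control 1 and TO 3 had no partner in the replicate block of 6 libraries, and control 1 had none in that of 7. DESeq2 called 44, DESeq2 on all 8 libraries (also added after seeing the data) 7, and edgeR with no filter 40. Leaving out 1 library gave 0 to 144, with 144 without TO 4 and 52 without control 4. Members higher in TO numbered 9 of 22, but 14 with 7 libraries, 17 with the replicate block in 8, 16 with it in 7, and 5 of 16 where each library had 5 reads. The cause was not tested.

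Fold changes (log2) that changed sign were all of members that passed no test. With all 8 libraries Hoxa2 was at 0.0608, Hoxb6 at 0.211 and Hoxb7 at 0.0853, and by DESeq2 at 0.0771, 0.228 and 0.109. With 7 libraries Hoxa2 was at 0.103, Hoxb3 at 0.0448, Hoxb6 at 0.20 and Hoxb7 at 0.0466. With the replicate block in 6 libraries, to whose TO effect control 1 and TO 3 added nothing, Hoxb5 was at 0.0751 and Hoxd9 at -0.42. With the replicate block in 8 Hoxa2 was at 0.13, Hoxa4 at 0.00069, Hoxb3 at 0.0896, Hoxb5 at 0.11, Hoxb6 at 0.25 and Hoxb7 at 0.0060. With the replicate block in 7 Hoxa2 was at 0.20, Hoxa4 at 0.0304, Hoxb3 at 0.25, Hoxb5 at 0.17 and Hoxb6 at 0.20. With the specimen code as a block, where TO 3 added nothing to the TO effect, Hoxb6 was at 0.10 and Hoxd9 at -0.49. Leaving out 1 library gave -0.18 to 0.0452 for Hoxa2, -0.0361 to 0.57 for Hoxa6, -0.27 to 0.20 for Hoxb6, -0.48 to 0.39 for Hoxb7 and -0.0865 to 1.25 for Hoxd9.

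Of the levels per kb, the Hoxb cluster stood at 32.6 with the strand sum. Group 2 stood at 4.42 with unshared exon length and 8.75 with the strand sum. Group 3 stood at 8.02 with unshared length, 8.97 with the longest transcript and 11.95 with the strand sum. The strand sum keeps pairs that the other count drops, and a shorter length raises a level per kb. Depth limits the members of groups 9 to 13, with 290 pairs in 7 libraries, and TO 1, where 1 pair equals 3.43 CPM.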
